A study of Mus musculus with 6 samples.

Results

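A set of 9 genes that guide migrating neurons was followed in sorted hindbrain cells of mouse embryos at E10.5, and 0 of them differed between genotypes at an adjusted p under 0.05 in limma, a linear model fitted to every probe set. They are the secreted glycoprotein gene Reln, its receptors Vldlr and Lrp8, the adaptor Dab1, the kinase Cdk5 and its activator Cdk5r1, the dynein regulator Pafah1b1, the chemokine Cxcl12 and its receptor Cxcr4. The platform's probe table assigned 32 of 45037 probe sets to exactly 1 of these 9 symbols, out of 34945 probe sets with exactly 1 symbol and 18193 genes. Where a gene had several probe sets, the one with the highest mean over the 6 arrays stood for it. The symbols were chosen by name, and levels are log2 of the deposited intensity.

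The cells were tauGFP-positive and came from dissected hindbrains that were pooled by whole litter, so each array holds RNA pooled over embryos. Both genotypes carried an IRES-tauGFP tag at the Hoxb1 locus, so green cells are those with an active locus. In the control genotype (Hoxb1-IRES-tauGFP, controls 1 to 3) the tagged locus made Hox-B1, and in the swap genotype (swaps 1 to 3) it made another Hox protein in its place. The labels call the tissue rhombomere 4, and the design text describes each array as an independent biological replicate. Whether embryos carried the allele on 1 or both chromosomes is not given in the sources used here.

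Facial branchiomotor neurons are born in rhombomere 4 and move caudally before they settle in the facial nucleus. Reelin, the product of Reln, binds the lipoprotein receptors encoded by Vldlr and Lrp8, which leads to phosphorylation of Dab1 by Src-family kinases. Cdk5 with its activator p35, the product of Cdk5r1, phosphorylates cytoskeletal proteins of migrating neurons, and Pafah1b1 (Lis1) couples dynein to the movement of the nucleus. Mouse mutants of the Reelin and Cdk5 pathways are known for misplaced facial motor neurons. Cxcl12 attracts cells that carry Cxcr4, a receptor coupled to inhibitory G proteins.

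Promoter windows from RefSeq (GRCm38.p6, 250 bases before to 50 after a start site) were matched for 7 of the 9 members, all but Cdk5 and Cdk5r1, and gave 11 windows. The first shown, of Cxcr4, belongs to a member that varied little between arrays. Those of Reln and Cxcl12 belong to members that were low together in control array 1. The last, 1 of 3 windows of Lrp8, holds a match to TGATNNAT, letters bound by Pbx and Hox proteins together. Capitals mark matches on either strand to the TATA box letters TATAAA, to the GC box letters GGGCGG, to the CCAAT box and to TGATNNAT. Each window is printed 5′ to 3′ along its gene.
Cxcr4, chr1:128592250-128592549, minus strand: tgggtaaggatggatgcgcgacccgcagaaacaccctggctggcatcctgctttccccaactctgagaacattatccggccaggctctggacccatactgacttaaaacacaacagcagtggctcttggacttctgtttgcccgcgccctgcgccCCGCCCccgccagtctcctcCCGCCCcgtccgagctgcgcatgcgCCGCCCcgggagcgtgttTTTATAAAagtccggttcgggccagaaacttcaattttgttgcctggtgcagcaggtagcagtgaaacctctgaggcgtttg
Reln, chr5:22344656-22344955, minus strand: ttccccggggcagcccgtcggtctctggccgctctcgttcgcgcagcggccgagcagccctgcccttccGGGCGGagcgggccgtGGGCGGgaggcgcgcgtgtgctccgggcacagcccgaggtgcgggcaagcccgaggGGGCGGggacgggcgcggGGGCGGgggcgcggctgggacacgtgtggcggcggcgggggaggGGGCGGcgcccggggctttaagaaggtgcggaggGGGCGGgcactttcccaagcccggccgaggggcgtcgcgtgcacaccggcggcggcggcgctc
Cxcl12, chr6:117168285-117168584, plus strand: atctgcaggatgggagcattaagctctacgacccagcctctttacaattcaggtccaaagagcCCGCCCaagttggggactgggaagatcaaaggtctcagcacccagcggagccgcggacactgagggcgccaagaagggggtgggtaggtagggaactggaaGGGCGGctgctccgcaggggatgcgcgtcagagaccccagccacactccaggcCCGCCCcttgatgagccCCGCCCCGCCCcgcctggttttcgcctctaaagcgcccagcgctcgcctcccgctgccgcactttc
Lrp8, chr4:107822911-107823210, plus strand: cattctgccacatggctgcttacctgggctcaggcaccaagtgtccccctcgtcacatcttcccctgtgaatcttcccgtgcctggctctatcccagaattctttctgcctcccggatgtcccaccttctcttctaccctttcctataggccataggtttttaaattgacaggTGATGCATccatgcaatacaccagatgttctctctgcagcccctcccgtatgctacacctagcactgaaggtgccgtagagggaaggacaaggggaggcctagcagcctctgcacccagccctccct
In the Cxcr4 window TATAAA lies 30 to 25 bases before the start, and TTTATA, its match on the other strand, overlaps it. That was the 1 window of the 11 with this motif, which 13.6% of all 32851 windows in the table hold. GGGCGG was found in 5 of the 11 windows (35.7% of all windows), 6 times in Reln and 5 times in Cxcl12, where the last 2 matches share a base. Reln's window had 80.7% G and C with 47 CpG, and Cxcl12's had 64.7% with 20 CpG, against a median of 52.7% and 7 CpG over all windows. TGATNNAT was found in 3 of the 11 windows (8.85% of all windows). It reads TGATGCAT in the Lrp8 window shown, 77 to 70 bases before the start. The other 2 matches lie in a second Lrp8 window and in a Dab1 window. The remaining Lrp8 window, chr4:107802635-107802934, lies furthest 5′ in the gene and holds no match to TGATNNAT. CCAAT was found in 2 of the 11 windows, 1 of Vldlr and 1 of Dab1 (37.4% of all windows).

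Across the table limma called 0 of 45037 probe sets (0%), so the members' count of 0 equals the background. At an unadjusted p under 0.05 there were 0 of the 9 members and 0 of their 32 probe sets, against 4.57% of all probe sets and 3.63% of genes. The median intensity of an array ranged from 118 to 139, and no pair of arrays held identical values. Hoxb1, the locus of the reporter, read 12.67, 12.68 and 12.55 across controls 1 to 3, against 12.54, 12.06 and 11.78 across swaps 1 to 3. Every swap array was below every control array, and the means differed by -0.51 (limma's adjusted p = 1.00, SE 0.27). Where this probe set lies relative to the altered part of the locus is not known here, so it does not check the labels. The facial motor neuron genes Isl1 and Tbx20 had the highest means of their marker list, of which 5 of 6 genes were measured. Isl1 lay between 13.63 and 14.03 and Tbx20 between 13.27 and 13.92 on the 6 arrays.

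Of the 9 members 7 had a higher mean in the swap arrays and 2 a lower one, with a median log2 difference of 0.27, swap minus control, against 0.01 over all 18193 genes. Over all 32 probe sets of these genes 16 were higher and 16 lower, with a median of -0.0019, and among the 24 that reach the median over all probe sets 10 were higher and 14 lower, with a median of -0.035. The direction of the count therefore depended on the choice of 1 probe set per gene. In every member the 2 genotypes' arrays overlapped, where 8.85% of all genes had arrays that did not. For 5 members, Lrp8, Dab1, Cdk5r1, Pafah1b1 and Cxcr4, the 95% interval of the log2 difference stayed inside 2-fold, and 68.1% of genes whose mean reached the median over all probe sets (an intensity of 114, the median level below) had such an interval. The intervals of Reln, Vldlr, Cdk5 and Cxcl12 reached past 2-fold on the high side. In bulk samples, fewer cells of a type and less RNA per cell cannot be told apart.

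**Figure D1:**
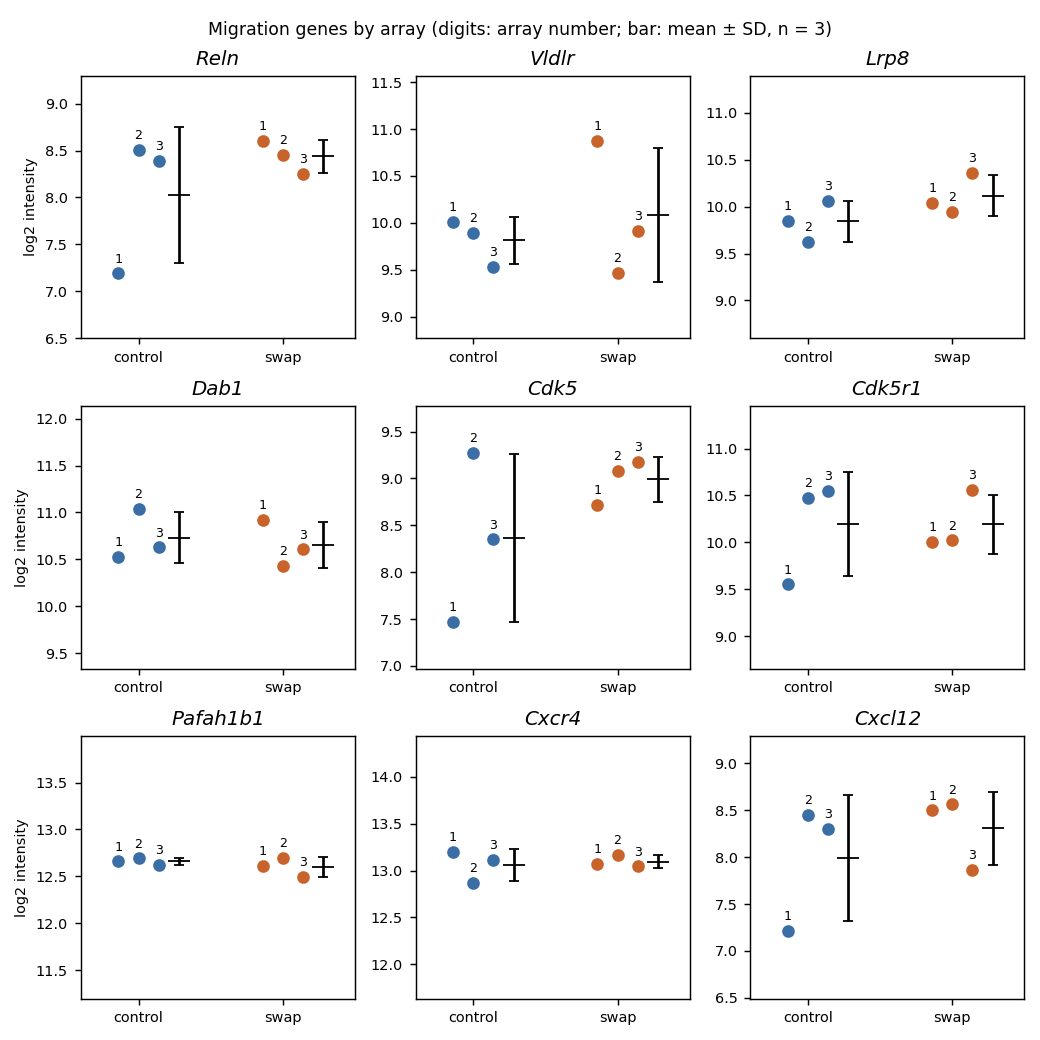
Log2 intensity of the 9 members on the 3 control arrays (blue) and the 3 swap arrays (orange), with digits for the array number and black bars for the mean ± SD (n = 3). Every panel spans the same log2 range, and control array 1 is the lowest array for Reln, Cdk5, Cdk5r1 and Cxcl12.

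Reln, the ligand, had log2 intensities of 7.19, 8.50 and 8.39 across controls 1 to 3, against 8.60, 8.46 and 8.25 across swaps 1 to 3. Control array 1 was 1.06 below the next array, while the other 5 lay close together and mixed by genotype. The genotype means differed by 0.41 (SE 0.41, 95% interval -0.60 to 1.42, limma's adjusted p = 1.00), a fold of 1.33 with an interval from 0.660 to 2.68. Without control array 1 it was -0.01 (95% interval -0.67 to 0.65). The other Reln probe set lay below the median level, between 1.93 and 5.08, and differed by 1.45 (95% interval -0.50 to 3.40). Markers of Cajal-Retzius cells, a class of Reln-producing neuron, were all measured (6 of 6, none at 0). Their summed intensity was 7021, 11331 and 11108 across controls 1 to 3, against 10347, 8289 and 12098 across swaps 1 to 3, lowest in control array 1 as Reln was. Of the 6 genes only 3 were lowest there, while Trp73 and Ebf2 were lowest in swap array 3 and Lhx5 in swap array 2. Ebf3 and Lhx1, both also genes of hindbrain neurons, had the highest means of this list, at 12.65 and 10.98. Trp73 and Calb2, both below the median level, had means of 6.24 and 5.52. The sum thus follows Ebf3 and Lhx1 most and does not show that Cajal-Retzius cells were present. Lhx1 stood at 9.98 in control array 1 and between 10.23 and 11.75 elsewhere. Calb2, a calcium-binding protein of this list below the median level, chosen after its values were seen, differed by 1.75 (SE 0.49, limma's adjusted p = 0.962). The part of these genes in the Reln values was not tested.

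The Reelin receptors gave no common direction over their probe sets. Vldlr had values of 10.01, 9.89 and 9.53 across controls 1 to 3, against 10.87, 9.47 and 9.92 across swaps 1 to 3. Swap array 1 was the highest and swap array 2 the lowest, so the swap arrays enclosed the control arrays. Swap minus control was 0.27 (SE 0.41, 95% interval -0.75 to 1.29), and without swap array 1 it was -0.12. This probe set, 1434465_x_at, is of a kind (x) whose probes can also match other transcripts. The other 4 Vldlr probe sets that reach the median level differed by -0.00, 0.21, -0.05 and -0.34. In 1442169_at and 1435893_at the lowest array was control array 1 (7.86 and 7.41), while swap array 1 was lowest in 1451156_s_at, at 7.26.

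Lrp8, which encodes the ApoER2 receptor, was at 9.85, 9.63 and 10.06 across controls 1 to 3, against 10.04, 9.95 and 10.36 across swaps 1 to 3. Control array 2 was the lowest and swap array 3 the highest, and the ranges overlapped. The genotype means differed by 0.27 (SE 0.24, 95% interval -0.33 to 0.88), a fold of 1.21 with an interval from 0.794 to 1.83. It ranged from 0.15 to 0.38 with any 1 array left out. The second Lrp8 probe set, 1440882_at, differed by -0.24 (95% interval -0.91 to 0.43), in the opposite direction. The third lay below the median level and differed by 0.23 (SE 0.97).

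Dab1, the adaptor inside the cell, was at 10.53, 11.04 and 10.63 across controls 1 to 3, against 10.92, 10.43 and 10.61 across swaps 1 to 3. The arrays of both genotypes filled the same range. Swap minus control was -0.08 (SE 0.26, 95% interval -0.72 to 0.57), a fold of 0.947 with an interval from 0.605 to 1.48. A second probe set, 1435577_at, gave almost the same order of arrays and a difference of -0.03. The other 3 Dab1 probe sets differed by 0.04, -0.45 and -0.08, the last 2 of them below the median level.

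Cdk5 had the largest difference of the 9 members, and its probe sets opposed each other. Its representative, 1450674_at, stood at 7.47, 9.27 and 8.35 across controls 1 to 3, against 8.72, 9.08 and 9.18 across swaps 1 to 3. The swap arrays lay close together inside the control range, and the control arrays spread over 1.80. The genotype means differed by 0.63 (SE 0.49, 95% interval -0.58 to 1.83, limma's adjusted p = 1.00). It was 0.18 without control array 1 and 1.08 without control array 2 (limma's unadjusted p = 0.0389, adjusted p = 0.989), so its size depended on these 2 control arrays at the ends of the range. The second probe set, 1422590_at, stood at 7.49, 7.37 and 7.71 across controls 1 to 3, against 6.14, 6.85 and 7.37 across swaps 1 to 3. There the highest swap array reached 7.370 and the lowest control array 7.372, so the genotypes did not overlap but were apart by far less than their own spread. The genotype means differed there by -0.74 (SE 0.37, limma's adjusted p = 1.00, 95% interval -1.64 to 0.16), and by -0.42 without swap array 1. The third, 1460022_at, lay below the median level and differed by 0.36 (SE 0.70).

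Cdk5r1, whose product p35 activates Cdk5, was at 9.55, 10.48 and 10.55 across controls 1 to 3, against 10.00, 10.02 and 10.56 across swaps 1 to 3. Control array 1 was again the lowest, by 0.45, and the genotype means were equal to 2 decimals, at 10.19. Swap minus control was 0.00 (SE 0.36, 95% interval -0.90 to 0.90), and -0.32 without control array 1. The second probe set, 1433451_at, differed by 0.10 (95% interval -0.55 to 0.75) and also had its lowest value, 9.23, in control array 1. The third, 1421124_at, had values of 7.28, 7.71 and 7.37 across controls 1 to 3, against 7.24, 6.70 and 7.11 across swaps 1 to 3. The genotype means differed there by -0.44 (SE 0.26, limma's adjusted p = 1.00, 95% interval -1.08 to 0.21), with all swap arrays below all control arrays. Together with 1422590_at of Cdk5 this made 2 of 32 member probe sets with no overlap, both lower in the swap arrays, against 8.83% of all probe sets in either direction and 4.73% in that direction.

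Pafah1b1 was among the steadiest members. Its 6 values lay between 12.49 and 12.70, with means of 12.66 ± 0.03 for the controls and 12.60 ± 0.10 for the swaps (SD, n = 3 arrays per genotype). Between the means the difference was -0.06 (SE 0.20, 95% interval -0.56 to 0.44), a fold of 0.961 with an interval from 0.680 to 1.36. All 5 of its probe sets had a lower mean in the swaps, with differences from -0.19 to -0.06 in 4 of them, and 0 passed. The fifth, 1427703_at, differed by -1.31 (SE 1.30), with swap array 1 at 3.19 and the other 5 arrays between 7.30 and 8.10.

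**Figure D2:**
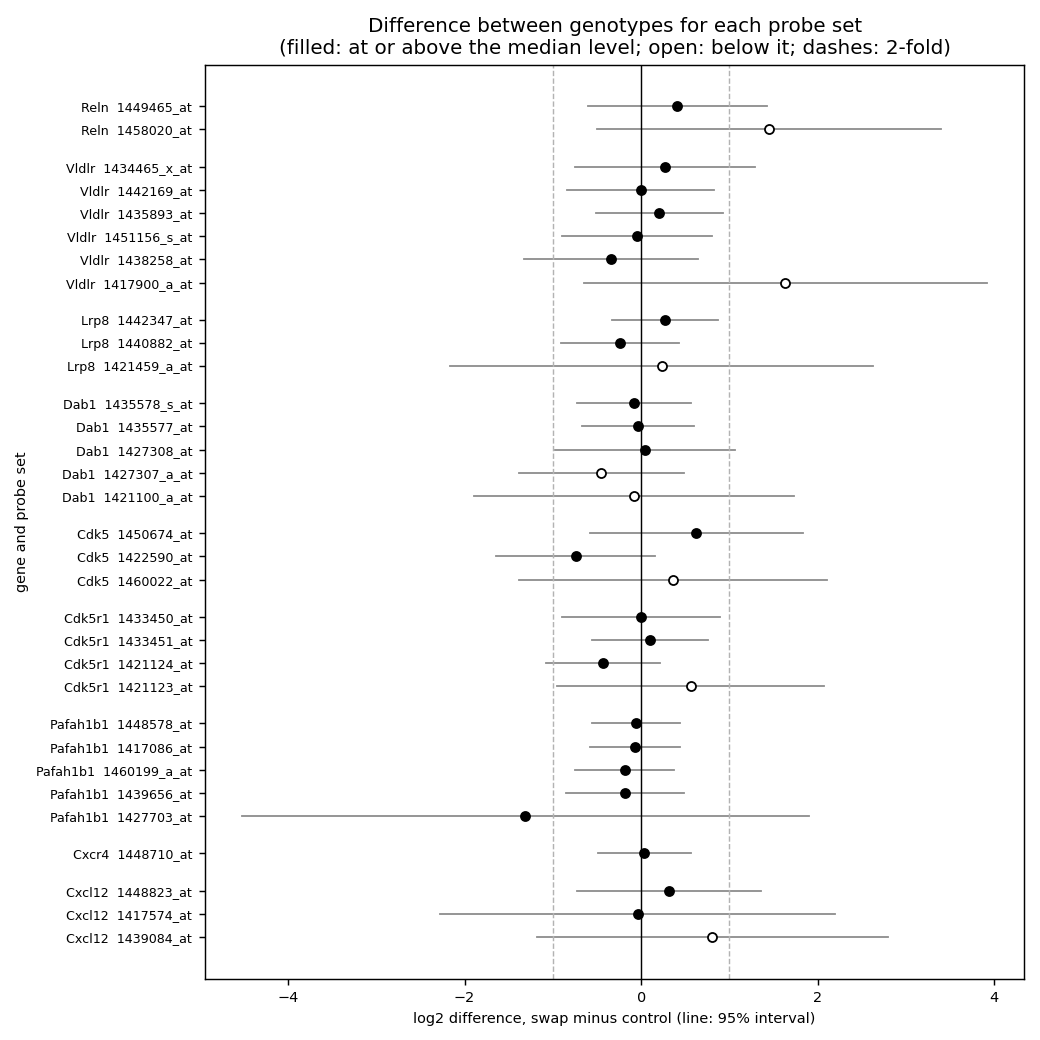
Log2 difference, swap minus control (horizontal axis), of the 32 member probe sets grouped by gene, with 95% intervals as lines. Filled points are the 24 probe sets that reach the median level, open points the 8 below it, and dashed lines mark 2-fold. All 32 intervals include 0, and 6 genes have probe sets on both sides of it.

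Cxcr4, the chemokine receptor, was at 13.20, 12.86 and 13.11 across controls 1 to 3, against 13.07, 13.17 and 13.04 across swaps 1 to 3. All 6 arrays lay within 0.34 of each other, and the ranges overlapped. Swap minus control was 0.04 (SE 0.21, 95% interval -0.49 to 0.56), a fold of 1.02 with an interval from 0.710 to 1.48. It was measured by 1 probe set. With 1 array left out it ranged from -0.06 to 0.11.

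Cxcl12, the ligand of Cxcr4, varied far more between arrays of 1 genotype. Its representative, 1448823_at, stood at 7.22, 8.45 and 8.30 across controls 1 to 3, against 8.50, 8.56 and 7.86 across swaps 1 to 3. Control array 1 was 0.65 below the next array. Swap minus control was 0.32 (SE 0.42, 95% interval -0.72 to 1.36), and -0.07 without control array 1 (95% interval -0.92 to 0.79).

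The second Cxcl12 probe set, 1417574_at, was low in the replicate 1 array of both genotypes. It stood at 5.38, 7.62 and 8.05 across controls 1 to 3, against 5.86, 8.17 and 6.90 across swaps 1 to 3. The other 4 arrays were all higher, by at least 1 log2 unit, and the difference between genotypes was -0.04 (SE 0.91). The representative probe set was not low in swap array 1, where it stood at 8.50. Mesenchyme makes Cxcl12, and in 5 of 10 genes of the mesenchyme and meninges list (Prrx1, Twist1, Col1a1, Col1a2 and Col3a1) the same 2 arrays were the lowest. The other 5 genes did not show this, and 2 of them, Prrx2 and Foxc1, were highest in control array 1, at 7.22 and 7.26. Col3a1, a fibrillar collagen chosen after its values were seen, stood at 7.08 in control array 1, 7.63 in swap array 1 and between 9.06 and 9.93 on the other arrays. Col1a1 and Prrx1 had the highest means of the list, and Col1a1 stood at 9.06 and 9.71 in these 2 arrays and between 10.39 and 11.47 on the others. All 10 genes of that list were measured and none was at 0. Their summed intensity ran from 3008 to 9096 across the controls and from 3498 to 6306 across the swaps, with the lowest value of each genotype in its replicate 1 array. Endothelium, which also makes Cxcl12, had 8 of 8 markers measured, 1 of them at or above the median level, with sums from 506 to 668 across the controls and from 633 to 792 across the swaps. Flt1 and Tek, its genes with the highest means, lay between 7.45 and 8.05 and between 5.83 and 7.02. The part of these cell types in the Cxcl12 values was not tested. The third Cxcl12 probe set lay below the median level, between 3.16 and 5.96.

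**Figure D3:**
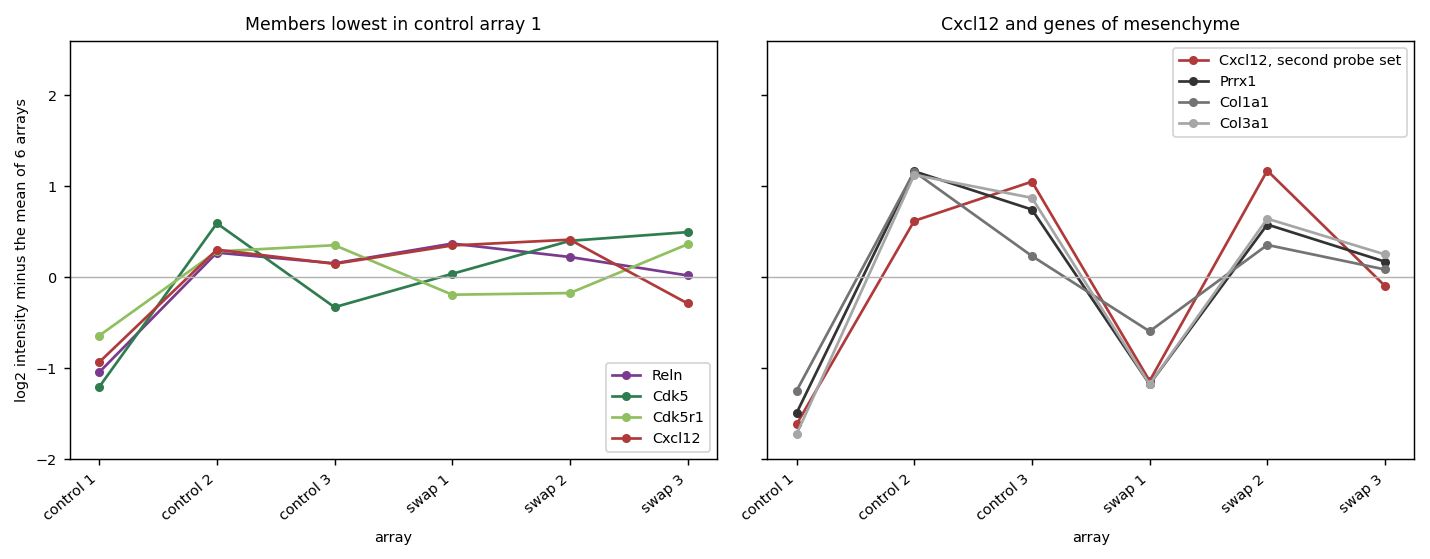
Log2 intensity minus the gene's mean over 6 arrays (vertical axis) by array, for the 4 members that are lowest in control array 1 (left) and for the second Cxcl12 probe set with 3 genes of the mesenchyme list (right), chosen from the 5 of 10 in which both replicate 1 arrays are lowest. Lines only join the values of 1 gene. On the left control array 1 is the lowest array of all 4 members, and on the right both replicate 1 arrays are low. The representative Cxcl12 probe set, on the left, is not low in swap array 1.

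Control array 1 thus held the lowest value of 4 of the 9 members, Reln, Cdk5, Cdk5r1 and Cxcl12. Of all 11168 genes at or above the median level, 20% had their lowest value there. It held the highest value of 1 member, Cxcr4, against 19.1% of those genes. Most neuron markers were low there too. Of the 5 measured genes of the neuron list 4 were lowest in control array 1. The list's summed intensity there was 23731, against 28530 and 30213 in the other control arrays and 25574 to 32848 in the swap arrays. The remaining gene, Tubb3, was at 12.34 in control array 1 and lowest in swap array 2, at 12.24. In swap array 2 the list's sum was 25574, while Cxcl12 had its highest value, 8.56. Elavl4 and Elavl3, RNA-binding proteins of neurons with the highest means of the list, stood at 12.54 and 12.24 in control array 1 and reached 13.02 and 12.82 in swap arrays. The neural progenitor list (6 of 6 measured, none at 0) had 0 genes lowest in control array 1 and its largest summed intensity there, 41872 against 39160 to 40129 on the other arrays. Vim and Fabp7, its genes with the highest means, lay between 14.08 and 14.28 and between 12.91 and 13.36. The 3′ minus 5′ log2 signal of Actb was 2.67 in control array 1 and 2.41 to 2.92 on the others, with the highest value in swap array 1. That of Gapdh was 1.35 in control array 1 and also highest in swap array 1, at 1.93, against 1.23 to 1.41 on the remaining arrays. The part of cell makeup and RNA quality in these values was not tested.

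**Figure D4:**
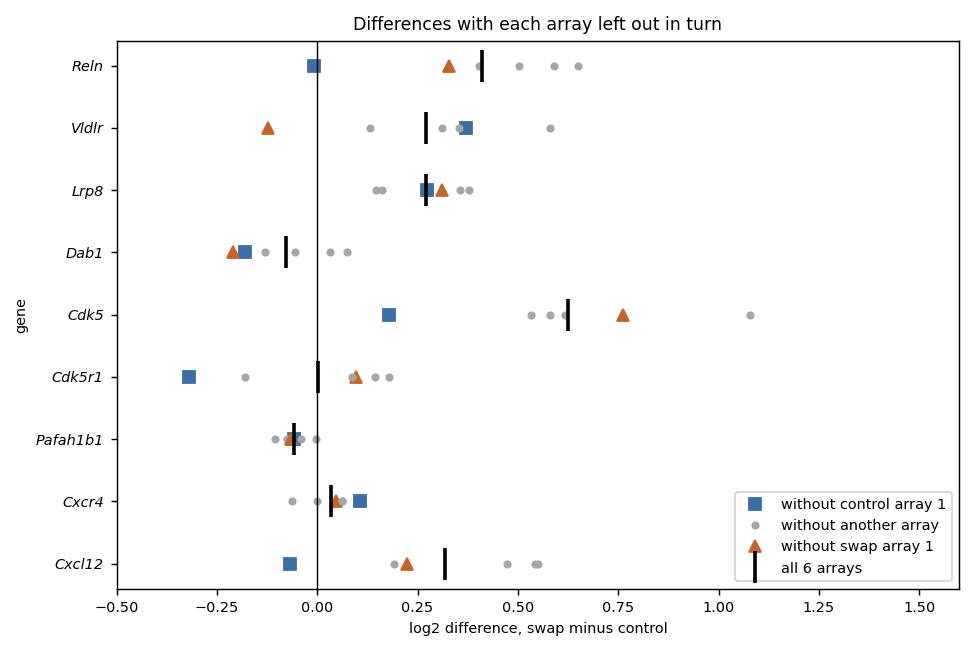
Log2 difference, swap minus control, of each member with all 6 arrays (black bar) and with each array left out in turn (points), with control array 1 as blue squares and swap array 1 as orange triangles. Without control array 1 the differences of Reln and Cxcl12 move to -0.01 and -0.07 and that of Cdk5 to 0.18, while without swap array 1 that of Vldlr moves to -0.12.

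Macrophages and blood cells were also followed, since they can enter a sort. The macrophage list (8 of 8 measured, none at 0) had summed intensities of 472, 17066 and 1775 across controls 1 to 3, against 2354, 4463 and 4306 across swaps 1 to 3, lowest in control array 1. C1qb and Fcer1g had its highest means, at 8.08 and 6.44 in control array 1 and 13.41 and 10.38 in control array 2. The representative probe sets of Cdk5 and Dab1 were highest in control array 2 as well. The third Cdk5 probe set, 1460022_at, which lay below the median level, was lowest there, at 5.16. The part of macrophages in the Cdk5 and Dab1 values was not tested. The erythroid list (5 of 6 measured, none at 0) ran from 20523 to 33105 across the controls and from 15361 to 31132 across the swaps, lowest in swap array 1. Hbb-y and Hbb-bh1, embryonic globins, had its highest means, at 13.56 and 11.25 in swap array 1.

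For the 5 members whose arrays spanned a log2 range of 1 or more, the genes with the most similar profile over the 6 arrays were found by the mean absolute difference of mean-centred values, among 11159 genes at or above the median level. This is a description over 6 arrays. Nearest to Reln were Npff, Bivm and Spint2, at 0.06, 0.09 and 0.10, all of them lowest in control array 1 (6.43, 6.57 and 7.37). Nearest to Cdk5 were Sgms1, Tst and Clic6, at 0.11, 0.13 and 0.14, and to Cdk5r1 Rps6, Zfand5 and Nrp2, at 0.05, 0.06 and 0.06. Nearest to Cxcl12 were Vwa8, Tent5b and Tgm2, at 0.08, 0.10 and 0.11. These genes were selected by profile, so their low value in control array 1 follows from the selection. Vldlr's nearest genes, Ankrd54, Tnfrsf19 and Gnb5, at 0.07, 0.08 and 0.10, were by the same selection highest in swap array 1.

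The other genes of these pathways were counted in the same fit. Of 87 listed genes 82 were measured, 44 with a higher and 38 with a lower mean in the swap arrays. limma called 0 in either direction, and 2 had an unadjusted p under 0.05, both lower in the swap arrays. Their median difference was 0.01, as it was over all genes, and 58 of the 82 had a 95% interval within 2-fold.

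The Reelin pathway list holds kinases, adaptors and effectors downstream of Dab1 and the proteases and ligands around its receptors. Of its 30 genes 29 were measured, 12 higher and 17 lower, 0 passed, and the median was -0.04. Src, a kinase that phosphorylates Dab1, stood at 8.06, 7.66 and 8.09 across controls 1 to 3, against 7.54, 6.27 and 5.96 across swaps 1 to 3. All swap arrays were below all control arrays, and swap array 1 was close to them. Its probe set is of a kind (s) whose probes can match several transcripts. Swap minus control was -1.34 (SE 0.46, 95% interval -2.48 to -0.20, limma's unadjusted p = 0.0283 and adjusted p = 1.00), and it ranged from -1.82 to -1.03 with 1 array left out. Fyn, the other main Dab1 kinase, was chosen after its values were seen and differed by 0.03 (95% interval -0.53 to 0.58). Itga3, an integrin subunit bound by Reelin, differed by 0.77 (SE 0.37, and 0.52 without control array 1). Adamts3, a protease that cleaves Reelin, differed by 0.61 (SE 0.34), with values of 8.09, 8.17 and 8.15 across the controls and of 8.73, 9.32 and 8.18 across the swaps. It was 0.32 without swap array 2.

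Of the 20 listed activators, substrates and associated proteins of Cdk5, 17 were measured, 11 higher and 6 lower, 0 passed, and the median was 0.06. The smallest p belonged to Cdk5rap1 (-0.80, SE 0.50, and -0.35 without swap array 1), Cdk5r2, which encodes the second activator p39 (-0.36, SE 0.28), and Cables1 (0.70, SE 0.56, below the median level). The Pafah1b1, dynein and nuclear movement list had 22 of 22 genes measured, 15 higher and 7 lower, 0 passed, and a median of 0.04. In this list 18 genes had an interval within 2-fold. Its smallest p belonged to Ndel1, a Cdk5 substrate that binds Lis1 (0.33, SE 0.29), Pafah1b3, a catalytic partner of Lis1 (-0.23, SE 0.21), and Dclk1, a microtubule-binding kinase (0.15, SE 0.26, and -0.04 without control array 1).

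The chemokine list had 18 of 19 genes measured, 8 higher and 10 lower, 0 passed, and a median of -0.09. Grk5, a kinase that desensitises G protein-coupled receptors, stood at 8.63, 9.18 and 9.00 across controls 1 to 3, against 7.87, 8.32 and 8.47 across swaps 1 to 3. Its genotypes did not overlap, and the difference was -0.72 (SE 0.28, 95% interval -1.41 to -0.03, limma's unadjusted p = 0.0444 and adjusted p = 1.00). Arrb1, a beta-arrestin, differed by 0.45 (SE 0.25), with all swap arrays above all control arrays, and Cxcr3, another chemokine receptor, by -0.59 (SE 0.34). Over the 82 genes, 4 were higher and 5 lower with no overlap, against 8.85% of all genes in either direction and 4.55% lower. Ackr3, the scavenger receptor for Cxcl12, was chosen after its values were seen. It differed by 0.28 (SE 0.21, 95% interval -0.25 to 0.80), at 11.55, 11.31 and 11.46 in the control arrays and 11.84, 11.70 and 11.61 in the swap arrays.

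**Figure D5:**
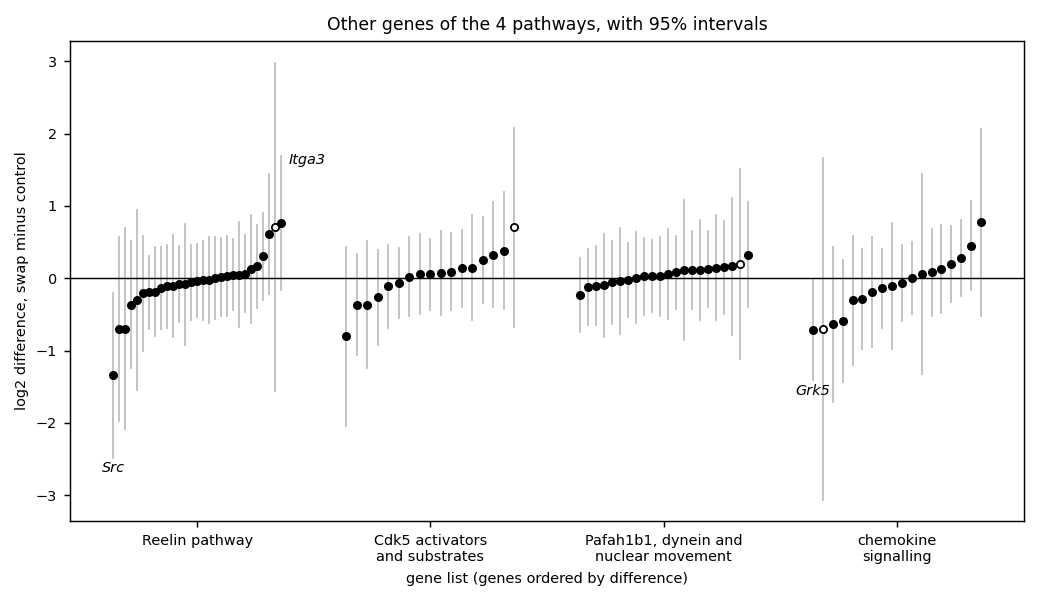
Log2 difference, swap minus control (vertical axis), of the measured genes of the 4 pathway lists, ordered by difference within each list, with 95% intervals as lines. Filled points are genes at or above the median level and open points genes below it. The intervals of Src and Grk5 alone exclude 0, and neither gene passed limma's test over all probe sets.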

How the data were processed

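RNA of sorted cells was amplified and measured on Affymetrix Mouse Genome arrays with biotin-labelled targets, per the labels. The authors deposited linear intensity values, 1 for each probe set on each array, made with the affy package per the submitters' processing notes. Neither its version nor its settings are given in the sources used here. Intensities on every array have a 2% trimmed mean of 500, so they were scaled. Log2 was taken with no offset, and 64 control probe sets were left out. Detection calls and scan dates were not used here, so no batch was tested.

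Probe sets were named by the platform's annotation, updated through Entrez identifiers (34741 matched RefSeq, 204 did not). Those with several symbols (932) or none (9160) stayed unnamed. Differences were fitted with limma 3.58.1 in R 4.3.3 (lmFit, eBayes) over all probe sets, two-sided, with Benjamini-Hochberg adjustment and a threshold of 0.05. On simulated data this fit did not recover 2-fold changes at that threshold. It also missed most 4-fold changes and part of the 8-fold and 16-fold ones. A count of 0 called therefore does not exclude changes of these sizes. Intervals are 95%, and the number of arrays limits their precision. Some listed genes are not reported here. Alternatives were the replicate block, a level filter, other scalings, an offset, array weights, another prior, other probe set rules and leaving out arrays. Named are all members, up to 3 genes per pathway list by smallest p, and the 2 highest per marker list. Members and lists were chosen with earlier results of these data known. The name of the protein made in the swap arrays is not reported here.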

Additional observations from a re-analysis of the deposited data

How the results depend on the processing

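limma called 0 probe sets of the whole table, 0 members and 0 pathway genes under every alternative run (16 for the table), with a smallest adjusted p of 0.241 over the table and 0.957 over the members. Counts at an unadjusted p under 0.05 were 801 to 2375 over the table and 0 or 1 among the members. The lowest count, 801, is over genes, by the mean of their probe sets. A filter at the median level gave 838, from fewer probe sets.

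Of 135 values of the 9 members 119 kept their direction, 16 turned and 0 became called. Cdk5r1, at 0.00, turned to -0.10 with array weights, -0.012 with quantile normalization and -0.0016 with an offset of 64. Without both replicate 1 arrays Cdk5r1 was at -0.22, Cxcl12 at -0.16, Reln at -0.090, Vldlr at -0.023 and Dclk1 at -0.071. With 1 array left out, the ranges were -0.0075 to 0.65 for Reln, -0.12 to 0.58 for Vldlr, -0.21 to 0.074 for Dab1, -0.32 to 0.18 for Cdk5r1, -0.062 to 0.11 for Cxcr4 and -0.067 to 0.55 for Cxcl12 and -0.038 to 0.30 for Dclk1. Of 209 values of other named genes and probe sets 207 kept their direction, and of 314 values of the 23 other member probe sets 34 turned and 0 were called.

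With the replicate number as a block limma called 0 members, and the smallest adjusted p of the table was 0.940. Deviations of arrays with the same number correlated at 0.23, 0.03 and 0.22 across 22519 probe sets, against -0.29 to 0.12 for arrays with different numbers. The median intensities of control and swap arrays were 118 and 118 for number 1, 130 and 122 for number 2, and 139 and 139 for number 3. The main fit did not pair arrays by number, since besides genotype the labels give only a replicate number and no batch. The block fit allows for a batch shared by arrays of the same number, but whether there was one was not tested. The differences of Reln and Cxcl12 rest on control array 1, that of Vldlr on swap array 1 and the size of Cdk5's on control arrays 1 and 2, and 8 of the 32 probe sets lie below the median level, where precision is poor.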
